A study of Mus musculus with 10 samples.

Results

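The genes described here encode the enzymes that build cholesterol from acetyl-CoA, together with SREBP2, the transcription factor that controls them, its regulators and a pair of further sterol-responsive genes. The 26 genes were taken from a given list of symbols, all 26 were found among the 27179 genes of the count table, and all 26 passed the filter on low counts. Liver RNA came from male C57BL/6 mice in which both Lpcat3 alleles are floxed. In the LKO group (Lpcat3f/f Albumin-Cre, 5 mice) Cre recombinase is driven by the albumin promoter, so the deletion is aimed at hepatocytes. Which other liver cells keep the gene was not examined here. The control group (Lpcat3f/f, 5 mice) carries the same floxed alleles without Cre. All 10 mice had eaten a diet that induces nonalcoholic steatohepatitis (NASH) for 12 weeks, and there was no group on another diet. The sources used here do not give the age of the mice or the make-up of the diet. Each mouse gave 1 library, and the labels do not name litters or cages.

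Cholesterol is made in the endoplasmic reticulum and cytosol by a chain of enzymes that passes through mevalonate, isoprenoid diphosphates, squalene and lanosterol. When membranes of the endoplasmic reticulum hold little sterol, the escort protein SCAP carries SREBP2 to the Golgi, where proteases release an active fragment that enters the nucleus. INSIG proteins hold SCAP back when sterol is plentiful, so transcripts of the pathway tend to move as a group. Lpcat3 encodes an acyltransferase that places polyunsaturated fatty acids in the phospholipids of those same membranes, and the comparison asks what the liver transcribes when hepatocytes lack it.

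Library totals ran from 26914124 to 46727182 counts. Levels are given as CPM, counts scaled to library size with the trimmed mean of M values (TMM). Lpcat3 itself averaged 31.3 ± 4.65 CPM in LKO livers and 109 ± 13.3 CPM in control livers (SD, n = 5 each), with no overlap between the groups and a log2 fold change of -1.79 (SE 0.12, edgeR adjusted p = 0.000151). A pair of libraries stood apart on the first principal component of all tested genes, which held 56.8% of the variance. LKO 3 scored 82.3, with its group mates ranging over -8.03 to 39.9, while control 4 scored 30.2, with its group mates ranging over -52.7 to -30.1. Log2 fold changes without either library are given below for each gene whose value lay more than 0.1 from 0 and moved by more than 1.5 times, and for some others. Bulk RNA cannot tell fewer cells of a type from less RNA per cell.

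Sequence upstream of these genes is shown because SREBP2 works through short elements near the start site, usually beside boxes for the factors NF-Y and Sp1. RefSeq promoter windows (GRCm38.p6, 250 bases before to 50 after an annotated start) were found for 22 of the 26 genes; the counts themselves were made on GRCm39. The NF-Y box CCAAT, on either strand, was in a window of 19 of the 22, or 86.4%, against 42.9% of 11447 tested genes with a window. The Sp1 box GGGCGG, on either strand, was also in 19 of the 22, against 64.1% of those tested genes. Over all 27025 genes with a window, 41.1% held CCAAT and 38.2% held GGGCGG. A strict form of the sterol regulatory element, TCACNCCAC, was found for Hmgcs1 alone (4.55% of the 22, against 1.51% of tested genes). No motif overlapped another in the stretches printed below, and a match is a description of letters, not a binding site. Each stretch holds the 250 bases before the annotated start, with matches to the 3 motifs on either strand in capitals (on the other strand CCAAT reads ATTGG and GGGCGG reads CCGCCC). Hmgcs1 is shown for its TCACNCCAC match, which begins 137 bases before the start, and Insig1 as the feedback regulator. Mvd and Tmem97 are shown for paired CCAAT boxes in genes with small unadjusted p-values. Paired boxes were not particular to such genes. Mvk held 5 CCAAT matches, Ggps1 and Hsd17b7 3 each and Ebp 2, with log2 fold changes of -0.07, 0.02, -0.05 and -0.22. Msmo1 held 3 and Nsdhl 4, with 0.26 and 0.30. Pmvk, with the smallest p, held 1 in 1 of its 2 windows, and no window was found for Fdps.
Hmgcs1 (chr13:119690101-119690350, plus strand): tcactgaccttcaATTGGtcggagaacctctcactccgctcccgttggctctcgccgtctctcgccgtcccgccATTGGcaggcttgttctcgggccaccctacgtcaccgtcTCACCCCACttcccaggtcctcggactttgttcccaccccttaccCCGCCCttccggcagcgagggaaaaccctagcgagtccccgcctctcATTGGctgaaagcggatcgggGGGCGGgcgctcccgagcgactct
Mvd (chr8:122443423-122443672, minus strand): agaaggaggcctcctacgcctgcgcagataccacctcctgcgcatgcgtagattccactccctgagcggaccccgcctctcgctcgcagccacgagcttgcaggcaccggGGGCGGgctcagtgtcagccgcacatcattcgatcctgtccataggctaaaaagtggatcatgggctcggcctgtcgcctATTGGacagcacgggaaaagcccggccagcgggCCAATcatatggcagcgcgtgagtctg
Tmem97 (chr11:78550736-78550985, minus strand): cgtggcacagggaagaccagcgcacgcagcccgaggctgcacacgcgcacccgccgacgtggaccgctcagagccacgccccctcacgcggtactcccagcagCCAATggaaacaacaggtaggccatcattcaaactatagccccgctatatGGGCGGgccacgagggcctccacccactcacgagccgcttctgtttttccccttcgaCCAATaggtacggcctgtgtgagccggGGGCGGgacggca
Insig1 (chr5:28071162-28071411, plus strand): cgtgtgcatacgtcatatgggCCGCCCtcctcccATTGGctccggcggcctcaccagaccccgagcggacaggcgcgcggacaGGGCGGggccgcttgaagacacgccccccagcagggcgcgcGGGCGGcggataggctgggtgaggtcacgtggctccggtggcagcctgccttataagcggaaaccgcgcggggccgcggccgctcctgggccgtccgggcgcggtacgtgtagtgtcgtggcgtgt

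Of the 26 genes, 0 passed an adjusted p under 0.05 in either direction, where 10 of 15226 tested genes did (0.0657%). The median log2 fold change of the 26 was 0.22, beside -0.00 over all tested genes, with 18 above 0 and 8 below. At an unadjusted p under 0.05, 5 were higher in LKO, where 12.8% of all tested genes were, and 0 were lower, where 9.5% were. These 5 were Pmvk, Mvd and Fdps, of the mevalonate and isoprenoid steps, the SREBP2 regulator Insig2 and the sterol-responsive gene Tmem97. The CPM ranges of the groups were apart for Pmvk alone, as higher in LKO (1.72% of all tested genes), and for 0 genes as lower (2.23%). Adjusted p-values ran from 0.101 (Pmvk) to 0.976 (Fdft1) in edgeR's quasi-likelihood test. The number at an unadjusted p under 0.05 as higher changed when some single libraries were left out, and so did the share of all genes. Without LKO 1 the number was 5 (14.3% of all genes), without control 2 it was 6 (9.28%) and without control 3 it was 4 (8.65%). It was 2 without LKO 4 (12.3% of all genes), without control 1 (9.21%) and without control 5 (9.63%). It was 3 without LKO 2 (12.3%) and without LKO 5 (9.91%), and 10 without LKO 3 (8.84%). Without control 4 it was 9 (19.1%), and 2 of the 26, Ebp and Scap, were then lower (14% of all genes).

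**Figure D1:**
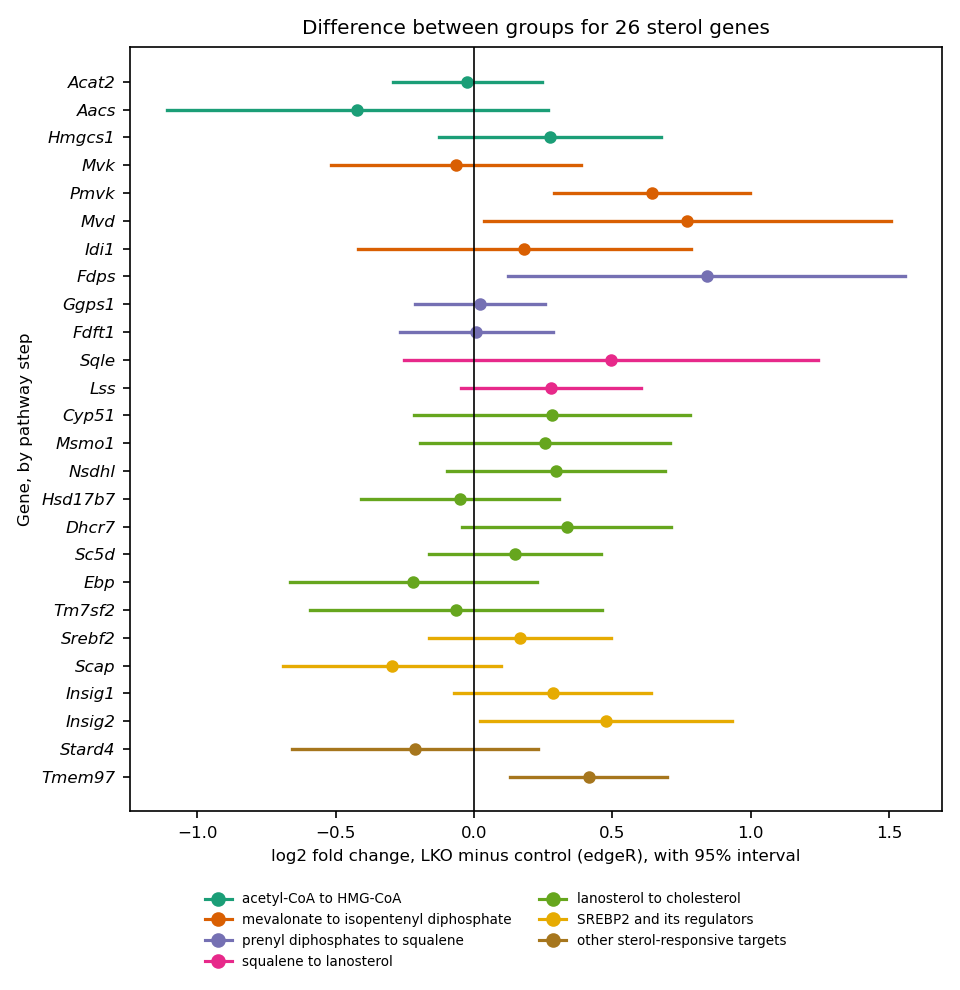
Log2 fold change, LKO minus control, for each of the 26 genes (horizontal axis) with its 95% interval (line), ordered from acetyl-CoA down to the regulators and coloured by step. The points run from -0.42 (Aacs) to 0.84 (Fdps), and the intervals of Pmvk, Mvd, Fdps, Insig2 and Tmem97 lie above 0.

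The entry steps turn acetyl-CoA into HMG-CoA. Hmgcs1, the synthase that makes HMG-CoA, had 129, 160, 113, 149 and 187 CPM in LKO 1 to 5, against 79.7, 114, 133, 160 and 123 CPM in control 1 to 5. The lowest value was in control 1 and the highest in LKO 5, and the groups overlapped (log2 fold change 0.27, 95% interval -0.13 to 0.68, edgeR adjusted p = 0.381). Acat2, the cytosolic thiolase that joins acetyl-CoA units, averaged 88.8 ± 14.5 CPM in LKO livers and 90.4 ± 9.31 CPM in control livers (log2 fold change -0.03, 95% interval -0.29 to 0.24). Its close relative Acat3 is also counted, and the sources used here do not say how reads shared by such copies were split, so the level of Acat2 is uncertain. Aacs, which activates acetoacetate from ketone bodies for lipid synthesis, had 49.6, 51.8, 12.4, 33.0 and 30.3 CPM in LKO livers, against 52.2, 53.7, 43.4, 54.8 and 33.1 CPM in control livers. LKO 3 was the lowest by far, and the log2 fold change was -0.42 with all libraries and -0.21 without LKO 3 (edgeR adjusted p = 0.436 and 0.602).

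Of the 4 mevalonate genes, 2 had an unadjusted p under 0.05. Pmvk, the kinase that makes mevalonate diphosphate, had 17.4, 23.3, 16.2, 27.0 and 19.0 CPM in LKO 1 to 5, against 12.5, 14.7, 13.7, 15.3 and 9.84 CPM in control 1 to 5. Every LKO library was above every control library, by a margin of less than 1 CPM between LKO 3 and control 4. The log2 fold change was 0.64 (SE 0.16, 95% interval 0.29 to 0.996, edgeR adjusted p = 0.101). Mvd, the decarboxylase that forms isopentenyl diphosphate, was scarce, with 2.58, 3.80, 1.74, 3.77 and 3.72 CPM in LKO livers, against 0.982, 2.18, 1.45, 3.26 and 1.28 CPM in control livers. The ranges overlapped, with LKO 3 lowest among LKO livers and control 4 highest among controls, and the log2 fold change was 0.77 (SE 0.33, edgeR adjusted p = 0.209). Mvk, which phosphorylates mevalonate ahead of Pmvk, averaged 4.80 ± 1.41 CPM in LKO livers and 5.02 ± 0.88 CPM in control livers, with a log2 fold change of -0.07 (95% interval -0.52 to 0.39). Idi1, the isomerase that supplies dimethylallyl diphosphate, had 18.2, 23.1, 19.1, 20.2 and 16.3 CPM in LKO livers, against 10.7, 14.6, 20.5, 30.0 and 9.61 CPM in control livers. The control values of Idi1 spanned a wider range than the LKO values and enclosed all of them (log2 fold change 0.18, edgeR adjusted p = 0.715). Without control 4 the log2 fold change of Idi1 was 0.48 (edgeR adjusted p = 0.130). Without control 4, Pmvk and Mvd passed as higher in LKO, with log2 fold changes of 0.70 and 1.08 (edgeR adjusted p = 0.0237 and 0.0358). These were 2 of the 26 genes, where 10.2% of 15327 tested genes passed as higher in that fit, and 0 of the 26 passed as lower, where 4.75% did. Control 4 was left out after its values were known.

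Fdps, the synthase of farnesyl diphosphate, had the largest log2 fold change of the 26 at 0.84 (SE 0.33, 95% interval 0.12 to 1.56, edgeR adjusted p = 0.175). It stood at 44.4, 68.8, 35.3, 70.6 and 58.5 CPM in LKO livers, against 17.9, 44.9, 29.3, 48.2 and 14.9 CPM in control livers. Controls 1 and 5 were well below the other controls, while controls 2 and 4 lay inside the LKO range. The enzymes that draw on farnesyl diphosphate had fold changes near 0. Ggps1, which extends it to geranylgeranyl diphosphate, averaged 10.97 ± 1.07 CPM in LKO livers and 10.8 ± 1.31 CPM in control livers (log2 fold change 0.02, 95% interval -0.21 to 0.26). Fdft1, the squalene synthase that commits it to sterols, averaged 37.4 ± 6.93 CPM in LKO livers and 37.2 ± 2.69 CPM in control livers (log2 fold change 0.01, 95% interval -0.27 to 0.28). In the GENCODE M21 annotation Ggps1 overlaps Arid4b and Fdft1 overlaps Ctsb, each on the opposite strand, as Cyp51 overlaps Akap9 and Mvd overlaps Gm20388. Fdps shares its strand with the overlapping Gm43738. By symbol, Gm43738 and Gm20388 were not among the tested genes, whereas Arid4b, Ctsb and Akap9 were. The sources used here do not give the strand setting of the counting, so shared reads leave Ggps1, Fdft1, Cyp51, Mvd and Fdps less certain. The test was of each gene against 0, so Fdps was not shown to differ from Ggps1 or Fdft1.

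**Figure D2:**
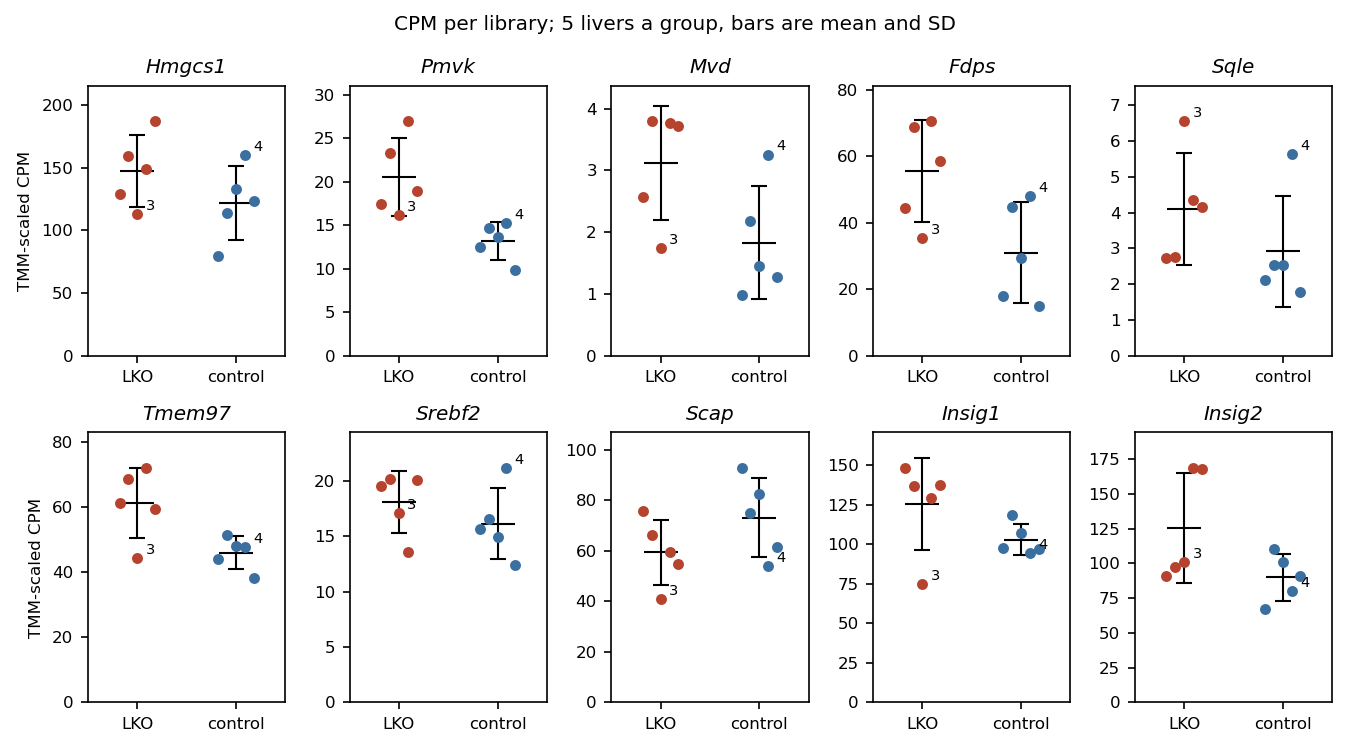
TMM-scaled CPM of 10 genes in each library (points; LKO left, control right), with the group mean and SD (bars) and LKO 3 and control 4 numbered. For Pmvk all LKO points, from 16.2 CPM, lie above all control points, up to 15.3 CPM; in the other panels the groups overlap.

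Squalene is oxidised by Sqle and closed to lanosterol by Lss. Sqle, a rate-limiting enzyme of the pathway, had 2.73, 2.76, 6.55, 4.35 and 4.16 CPM in LKO livers, against 2.11, 2.53, 2.53, 5.64 and 1.79 CPM in control livers. The highest values came from LKO 3 and control 4, and the log2 fold change was 0.50 with all libraries, 0.26 without LKO 3 and 0.88 without control 4 (edgeR adjusted p = 0.398, 0.706 and 0.0509). Lss had 20.3, 20.5, 12.4, 21.5 and 17.6 CPM in LKO livers, against 12.6, 17.5, 15.3, 16.3 and 14.4 CPM in control livers. LKO 3 was the lowest of all 10 for Lss, and the other LKO libraries were above every control (log2 fold change 0.28, SE 0.15, edgeR adjusted p = 0.280).

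From lanosterol to cholesterol, 8 enzymes were measured, 5 with log2 fold changes above 0 and 3 below, from -0.22 (Ebp) to 0.33 (Dhcr7). Dhcr7, which catalyses the last reduction of one branch, had 23.7, 26.03, 17.0, 24.6 and 18.8 CPM in LKO livers, against 14.7, 21.9, 17.1, 21.1 and 12.5 CPM in control livers. LKO 3 and LKO 5 lay among the controls (95% interval -0.04 to 0.71, edgeR adjusted p = 0.266). Sc5d, the lathosterol desaturase, had 317, 335, 231, 349.5 and 299.8 CPM in LKO livers, against 223, 287, 346, 263 and 265 CPM in control livers. The groups overlapped nearly throughout (log2 fold change 0.15, 95% interval -0.16 to 0.46), with a log2 fold change of 0.23 without LKO 3. The sterol demethylase Cyp51 averaged 36.8 ± 4.66 CPM in LKO livers and 30.3 ± 12.1 CPM in control livers, and its highest value of all, 48.7 CPM, was in control 4. The log2 fold change of Cyp51 was 0.28 with all libraries and 0.52 without control 4 (edgeR adjusted p = 0.474 and 0.0631). Msmo1 and Nsdhl, which remove methyl groups from the sterol ring together with Hsd17b7, had log2 fold changes of 0.26 and 0.30, and Hsd17b7 one of -0.05. Without LKO 3 the log2 fold change of Msmo1 was 0.40 (edgeR adjusted p = 0.236). Ebp, the isomerase of the sterol double bond, had 96.9, 96.9, 62.9, 104.8 and 64.7 CPM in LKO livers, against 115, 108, 108, 58.4 and 106 CPM in control livers. The low values of Ebp came from LKO 3, LKO 5 and control 4, whereas the other 4 controls were above every LKO library. The log2 fold change of Ebp was -0.36 without control 4 and -0.13 without LKO 3 (edgeR adjusted p = 0.137 and 0.756). The sterol reductase Tm7sf2 had a log2 fold change of -0.07 (95% interval -0.59 to 0.46), and it overlaps Vps51 on the same strand in the annotation. The adjusted p-values of the 8 enzymes ran from 0.266 to 0.888 in the edgeR test.

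Srebf2, which encodes SREBP2 and is itself a SREBP2 target, had 19.6, 20.2, 17.1, 13.6 and 20.1 CPM in LKO livers, against 15.7, 16.6, 14.9, 21.2 and 12.4 CPM in control livers. The single highest library was control 4 and the groups overlapped (log2 fold change 0.17, 95% interval -0.16 to 0.49, edgeR adjusted p = 0.530). Without control 4 it was 0.28 (edgeR adjusted p = 0.167). Scap had 75.7, 66.1, 41.0, 59.7 and 54.9 CPM in LKO livers, against 93.0, 75.1, 82.6, 53.9 and 61.4 CPM in control livers. LKO 3 was lowest and control 1 highest, with a log2 fold change of -0.30 (95% interval -0.69 to 0.10, edgeR adjusted p = 0.335). Without LKO 3 it was -0.19 (edgeR adjusted p = 0.542). Insig1, whose transcript is known to follow SREBP activity, had 148, 137, 74.6, 129 and 137 CPM in LKO livers, against 97.5, 118, 107, 94.7 and 97.1 CPM in control livers. LKO 3 was below all controls and the other 4 LKO libraries above all of them. The log2 fold change of Insig1 was 0.28 with all libraries and 0.42 without LKO 3 (edgeR adjusted p = 0.315 and 0.0939). Insig2, which has the same retention function and whose liver transcript is known to be repressed by insulin, had 90.9, 97.5, 101, 169 and 168 CPM in LKO livers, against 67.4, 111, 101, 80.3 and 90.9 CPM in control livers. LKO 4 and LKO 5 were far above the rest, whereas LKO 1 to 3 lay inside the control range (log2 fold change 0.48, SE 0.21, edgeR adjusted p = 0.21).

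Of the further sterol-responsive genes, Tmem97, the sigma-2 receptor that binds the cholesterol transporter NPC1, had 61.2, 68.7, 44.4, 72.0 and 59.4 CPM in LKO livers, against 44.1, 51.4, 47.9, 47.8 and 38.1 CPM in control livers. LKO 3 was among the controls, and the other 4 LKO libraries were above all of them. The log2 fold change was 0.41 (SE 0.13, 95% interval 0.13 to 0.70, edgeR adjusted p = 0.132), and 0.51 without LKO 3 (edgeR adjusted p = 0.0806). Stard4, which carries sterol between membranes, averaged 31.4 ± 9.24 CPM in LKO livers and 36.4 ± 5.56 CPM in control livers, with LKO 3 lowest at 16.8 CPM (log2 fold change -0.21, 95% interval -0.66 to 0.23, and -0.06 without LKO 3).

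Taken library by library, the 26 genes did not follow genotype alone. LKO 3 was the lowest of the 10 libraries for 11 of the 26, control 5 for 9, control 1 for 5 and control 4 for 1. LKO 4 was highest for 7, LKO 2 for 5, control 4 for 4 and LKO 1 for 3. The median over the 26 genes of log2 CPM minus the control mean was 0.20, 0.33, -0.18, 0.33 and 0.13 in LKO 1 to 5, against -0.10, 0.11, 0.09, 0.15 and -0.26 in control 1 to 5. LKO 3 and LKO 5 thus lay among the controls, whereas LKO 1, LKO 2 and LKO 4 were above every control. Neighbouring genes differed within LKO 3, where Aacs stood at -1.91 but Hmgcs1 at -0.07, and Sqle at 1.27 but Lss at -0.29. In control 4 Sqle likewise stood at 1.06 and Lss at 0.11. Without LKO 3, the groups were apart for Pmvk, Lss, Insig1 and Tmem97, 4 of 26 genes, where 2.66% of all tested genes were apart as higher in LKO. In that fit 10 of the 26 had an unadjusted p under 0.05 as higher, where 8.84% of all tested genes had, and 0 passed an adjusted p under 0.05. LKO 3 was left out after its values were known.

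**Figure D3:**
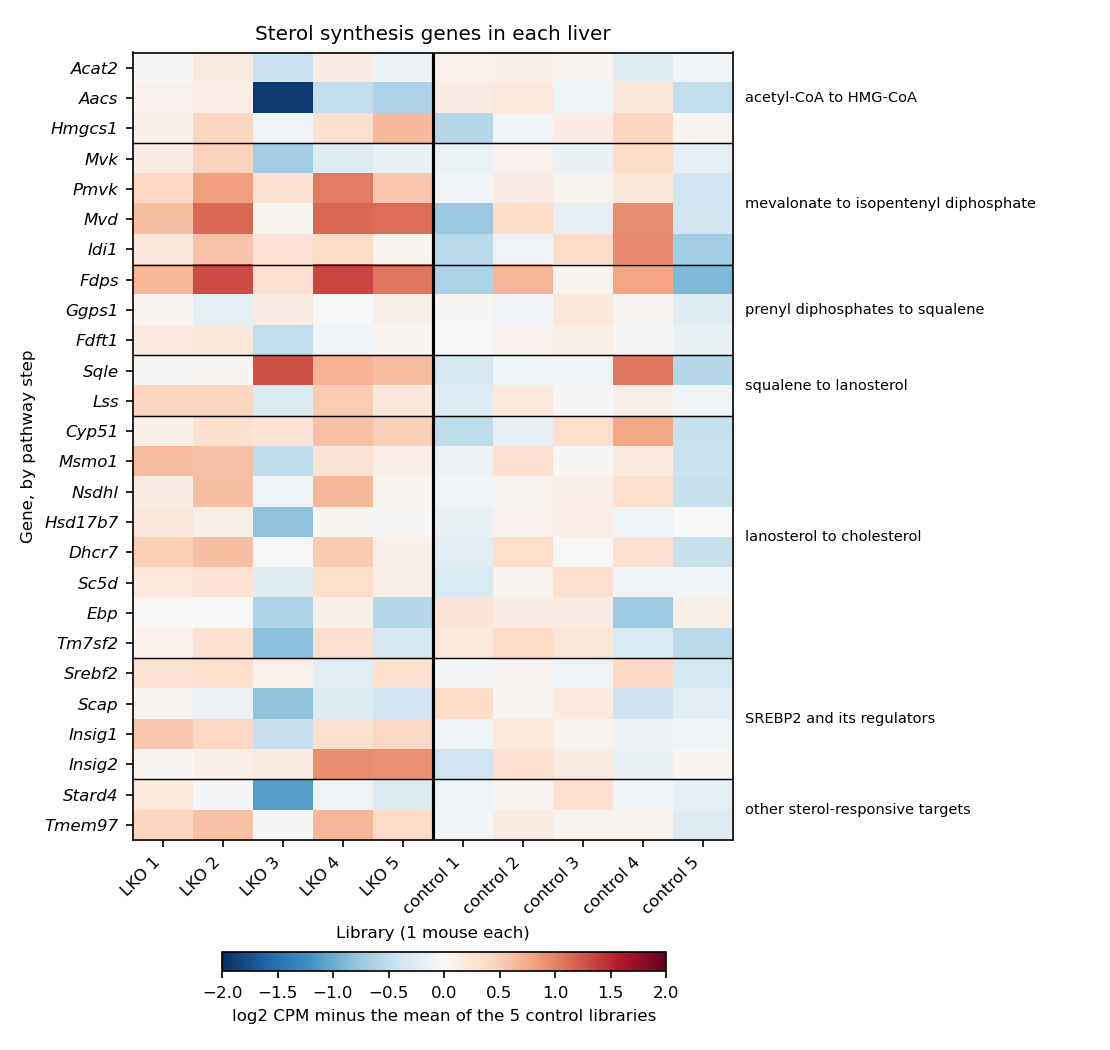
Log2 CPM minus the mean of the 5 control libraries for each gene (rows, by step) in each library (columns; LKO left of the line, control right), with red above and blue below the control mean. The darkest blue cell is Aacs in LKO 3 at -1.91, and LKO 3 is above the control mean for 9 of 26 genes, Sqle among them.

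Codes of unstated meaning (A54, A55 and A67) follow the sample names, and A54 alone occurs in both groups. Within A54, both LKO libraries (1 and 2) were above the control library (1) for 20 of the 26 genes and both were below it for 3. The median log2 difference of the 26 was 0.49, beside -0.003 over all tested genes. The shares of all tested genes with both LKO libraries above or below were not computed, so these counts have no background to be judged against. That control library was one of the lowest of all for Mvd and Fdps, and it was the lowest of the 10 for 5 of the 26. No test was made on these 3 libraries alone. The fit with the code as a covariate takes its genotype difference from the same 3 libraries, since the other codes do not occur in both groups.

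Compared per kilobase of exon, the genes differed by more than an order of magnitude. Sc5d (63.0 ± 9.48 CPM per kb in LKO livers, 56.9 ± 9.28 in control livers) and Ebp (48.9 ± 11.4 in LKO livers, 56.9 ± 13.2 in control livers) were highest on this scale and did not differ beyond their spread. Insig1, Tmem97, Insig2, Hmgcs1, Fdps and Acat2 came next in LKO livers, from 46.5 down to 35.6 CPM per kb, with SDs of 5.80 to 13.4 that overlap. Sqle (1.49 ± 0.57 CPM per kb in LKO livers, 1.06 ± 0.56 in control livers) and Mvd (1.78 ± 0.53 in LKO livers, 1.04 ± 0.52 in control livers) were lowest. Exon lengths came from GENCODE M21, because the sources used here do not name the annotation behind the counts, so these levels are approximate.

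**Figure D4:**
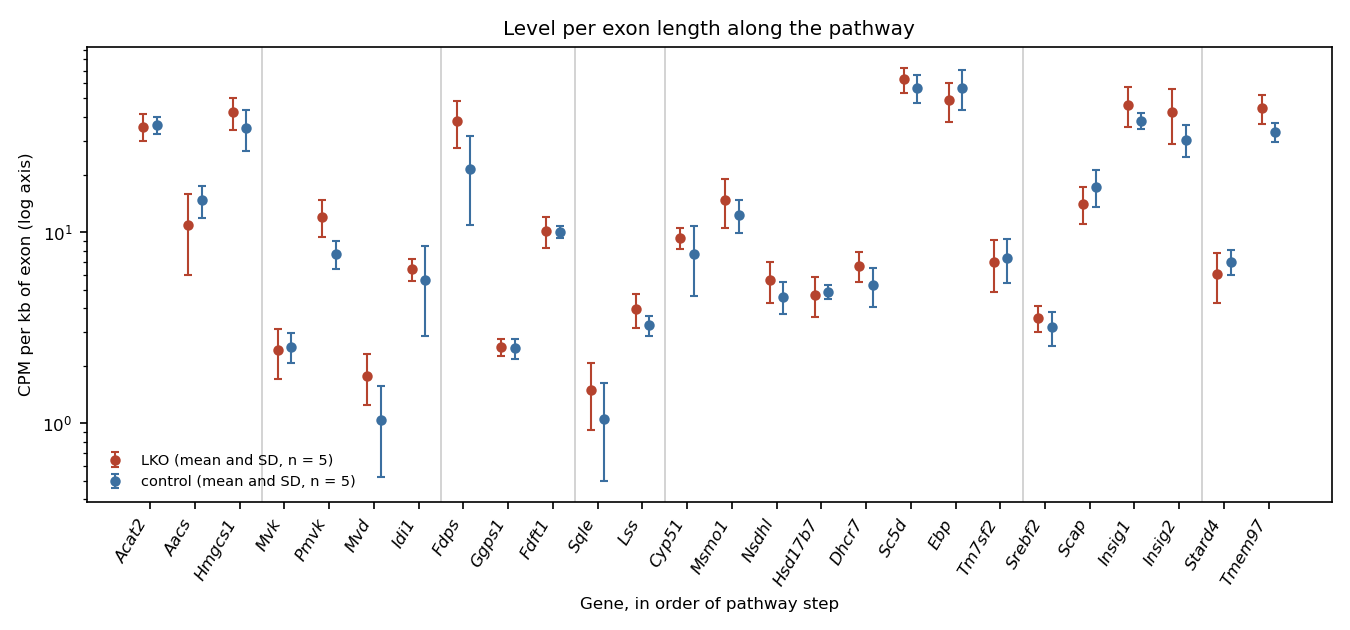
Mean level per kilobase of exon (vertical log axis) with SD for each gene in pathway order, LKO in red and left, control in blue and right. Sc5d and Ebp sit at the top, at 63.0 and 48.9 CPM per kb in LKO livers, and Sqle and Mvd at the bottom, at 1.49 and 1.78.

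Genes next to the pathway, listed by function with earlier results of these data known, gave no called member besides Lpcat3. Among 11 genes that process SREBP or act in sterol-triggered degradation, such as the protease gene Mbtps1, the median log2 fold change was -0.04. At an unadjusted p under 0.05, 0 of them were higher and 0 lower, where 12.8% of all tested genes were higher and 9.5% lower. Ufd1 had the smallest p of them (log2 fold change -0.12, edgeR adjusted p = 0.385). Among 13 genes of the isoprenoid branches, which make dolichol and ubiquinone and prenylate proteins, 11 had log2 fold changes below 0 (median -0.11). Over all tested genes, 7688 of 15226 were below 0. At an unadjusted p under 0.05, 1 of the 13 was lower and 0 were higher, against 9.5% and 12.8% of all tested genes. The lower gene was the prelamin protease gene Zmpste24 (51.1 ± 2.81 CPM in LKO livers, 57.8 ± 5.65 CPM in control livers). Of 16 tested genes of sterol esterification and transport, 3 were higher and 2 lower at an unadjusted p under 0.05, where 12.8% of all tested genes were higher and 9.5% lower. The lipid transfer protein gene Vps13c averaged 84.7 ± 3.42 CPM in LKO livers and 103 ± 6.53 CPM in control livers, with no overlap (log2 fold change -0.29, edgeR adjusted p = 0.0999). Npc2, which hands cholesterol out of lysosomes, averaged 43.3 ± 7.79 CPM in LKO livers and 31.3 ± 6.03 CPM in control livers (edgeR adjusted p = 0.134).

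Among 10 genes of the sterol sensor LXR and its targets, Lpcat3 passed as lower and 0 of the others passed, and at an unadjusted p under 0.05 the list had 2 higher and 4 lower, Lpcat3 included (12.8% and 9.5% of all tested genes). The median log2 fold change of the list was -0.23, with 7 of the 10 below 0. Lpcat3, the deleted gene, is among these 7 at -1.79, and its direction was set by the design. A median without Lpcat3 was not computed. Pltp, the phospholipid transfer protein gene, averaged 18.7 ± 3.69 CPM in LKO livers and 10.1 ± 3.57 CPM in control livers (log2 fold change 0.88, edgeR adjusted p = 0.101). The other higher gene was Abcg1 (log2 fold change 0.51, edgeR adjusted p = 0.151). Besides Lpcat3, the lower genes were Abca1, Abcg5 and Abcg8, with log2 fold changes of -0.31, -0.70 and -0.80 (edgeR adjusted p = 0.156, 0.221 and 0.213). Of 13 lipogenic genes under SREBP1, 10 had log2 fold changes above 0 (median 0.15) and 0 passed. At an unadjusted p under 0.05, 2 of them were higher and 1 lower, against the same 12.8% and 9.5% of all tested genes. Acacb, an acetyl-CoA carboxylase gene, averaged 169 ± 56.3 CPM in LKO livers and 74.3 ± 37.4 CPM in control livers (log2 fold change 1.19, edgeR adjusted p = 0.120). Me1, the malic enzyme gene, had a log2 fold change of 0.74 and Mid1ip1, a regulator of acetyl-CoA carboxylase, one of -0.46 (edgeR adjusted p = 0.176 and 0.216). Srebf1, chosen after its values were seen, stood at 195 ± 88.0 CPM in LKO livers and 308 ± 66.2 CPM in control livers, with a log2 fold change of -0.66 (edgeR adjusted p = 0.253) beside 0.17 for Srebf2. Among 8 genes that supply acetyl-CoA or NADPH, which reductive sterol synthesis consumes, 7 were above 0 with a median of 0.52. At an unadjusted p under 0.05, 3 of the 8 were higher (12.8% of all tested genes). Acly, Acss2 and Me1 are in both this list and the lipogenic list, and Srebf1 is in both the lipogenic and the LXR list. These lists are thus not separate results. The pentose phosphate enzyme gene G6pdx averaged 11.4 ± 3.16 CPM in LKO livers and 6.78 ± 1.82 CPM in control livers (log2 fold change 0.75, edgeR adjusted p = 0.114).

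No marker of the liver cell types listed passed an adjusted p under 0.05, and the summed levels of several lists were highest in LKO 3 and control 4. Of 11 macrophage markers, 9 had log2 fold changes above 0, and their summed level ran from 442 to 877 CPM in LKO livers and from 251 to 621 CPM in control livers, with the top of each range in LKO 3 and control 4. Cd68, Lyz2, Trem2, Gpnmb, Itgax and Spp1 were each highest of their group in those libraries. By contrast, Clec4f (41.3 and 44.9 CPM), Timd4 (3.16 and 4.22 CPM) and Vsig4 (19.1 and 17.1 CPM) were lowest of their group in LKO 3 and control 4. The 9 stellate cell and fibroblast markers summed to 418 to 1114 CPM in LKO livers and 231 to 630.1 CPM in control livers, and the 6 cholangiocyte markers to 28.2 to 367 CPM in LKO livers and 23.3 to 158 CPM in control livers, again highest in LKO 3 and control 4. Spp1 is in both the macrophage and the cholangiocyte list, so these sums are not separate. It held 316 CPM in LKO 3 and 145 CPM in control 4, most of the cholangiocyte sum in each. All 9 stellate, 6 cholangiocyte, 7 endothelial and 6 tested lymphocyte markers had log2 fold changes above 0. The endothelial markers had sums of 375 to 588 CPM in LKO livers and 371 to 440.5 CPM in control livers, with LKO 3 at the low end of its group and control 4 at 376.5 CPM. The 6 tested lymphocyte markers summed to 3.08 to 5.46 CPM in LKO livers and 1.51 to 4.03 CPM in control livers. The 7 hepatocyte markers found by symbol, of 8 listed, all had log2 fold changes below 0 and summed to 47940 to 66980 CPM in LKO livers and 55550 to 85970 CPM in control livers, lowest in LKO 3 and control 4. Cftr, a cholangiocyte gene, had 0 counts in control 1, and no other marker gene among those listed was at 0 in any library. The part of cell composition in the values of the 26 sterol genes was not tested.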

How the data were processed

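Per the labels' protocols, ribosomal RNA was removed from total RNA of frozen liver, stranded libraries were made and read from 1 end on 1 lane. The authors deposited raw counts per gene, named by NCBI Gene number. Bcl2fastq 2.20, DESeq2 and the build GRCm39 are named in the submitters' processing notes; the aligner, counting tool, strand setting and annotation were not given in the sources used here. All 10 columns matched samples by title. A RefSeq table (GRCm38.p6) gave symbols for 25275 of 27179 genes, the others holding 0.693% of counts.

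Genes were filtered with filterByExpr, scaled with TMM and tested on genotype with edgeR 4.0.16 (R 4.3.3; quasi-likelihood F test, legacy option, two-sided), with Benjamini-Hochberg adjustment over 15226 genes at 0.05. SEs and 95% intervals were derived from each F statistic. Alternatives used limma 3.58.1 and DESeq2 1.42.0. Relative log2 values used a prior count of 2. Fits were checked on simulated counts. No pair of libraries was a duplicate: the smallest chi-square divided by its degrees of freedom was 34.5 in LKO and 51.6 in control. The p-values reflect only the spread among these samples. The members and lists were chosen with earlier results of these data known. All 26 members are named; values per library are given for the 6 with the smallest p, the 4 SREBP2 regulators and the most abundant of each step, and for Aacs, Sqle and Ebp after their values were seen. Each list of neighbouring genes is illustrated by up to 3 of those with the smallest p. Srebf1, Abca1, Abcg5 and Abcg8 were added after their values were seen. Figures were drawn with matplotlib 3.10.9.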

Additional observations from a re-analysis of the deposited data

Results flagged for a closer look

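Of 52 groups of 5 values (26 genes in LKO and in control), 3 held a library whose gap to its nearest neighbour exceeded 0.71 of the group's range, Dixon's 95% critical value; chance gives about 1 in 20. Insig1 in LKO 3 was 74.6 CPM, with the next LKO library at 129 CPM. Sqle in control 4 was 5.64 CPM, with the next control at 2.53 CPM. Ebp in control 4 was 58.4 CPM, with the next control at 106 CPM. All 3 values came from the pair of libraries that stood apart on the first principal component.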

How the results depend on the processing

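None of the 26 genes passed an adjusted p under 0.05 in either direction under the other planned scalings and filters, edgeR without the legacy option, the title code as a covariate, the replicate block or an adjusted p under 0.1. The number of the 26 that passed as higher in LKO was 2 with DESeq2 (Pmvk and Tmem97). In that fit 1186 of 15226 genes passed in either direction. With limma voom and quality weights 6 passed as higher (Pmvk, Mvd, Fdps, Lss, Insig1 and Tmem97), where 2460 of 15226 genes passed in either direction. Without control 4 and LKO 3 together 6 likewise passed as higher, where 2363 of 15150 genes passed in either direction. The shares of all genes that passed as higher were not computed for these fits, so the counts of 2 and 6 have no like background. With 1 library left out the number ran from 0 to 2, the 2 being Pmvk and Mvd without control 4 (10.2% of all genes as higher). None passed as lower in any of these. The count of all genes called, 10, was 31 without a filter, 20 with at least 1 CPM in 5 libraries, 0 with the title code, 296 at an adjusted p under 0.1 and 2 to 2296 with 1 library left out, the 2296 without control 4. The cause of these shifts was not tested. The median log2 fold change of the 26 genes was 0.42 with total counts, where the median of all genes was 0.235. With the title code and in A54 alone it was 0.49. Those settings rest on the same libraries and are not separate results, since A54 alone occurs in both groups. The median was 0.35 with limma voom and 0.40 without control 4 and LKO 3 together. It was 0.14 to 0.29 with 1 library left out. With total counts 12 of the 26 had an unadjusted p under 0.05 as higher, as did 3762 of all genes (24.7%), and Tmem97, not Pmvk, had groups that did not overlap. The sign of the fold change differed from that reported in at least 1 alternative for Acat2, Mvk, Ggps1, Fdft1, Hsd17b7, Ebp, Tm7sf2 and Stard4. With the replicate number as a block 2 of all genes and 0 of the 26 passed. Correlations between libraries with the same number ran from -0.399 to 0.419. LKO 1 alone was closest to the control of its own number (0.419, with 0.294 at most for another control), and this pair shares the code A54. The other LKO libraries were not closest to their own number, so the numbers were not taken as pairs. The lowest count behind a value of the 26 genes was 26 reads, for Mvd in control 1, so depth limits the precision of Mvd and, less so, of Sqle.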
